A study of Mus musculus with 32 samples.

Results

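Glutathione S-transferases are enzymes that join the tripeptide glutathione to reactive, electron-poor molecules, which makes these molecules more soluble and lets the cell export them. In fat cells they are known for clearing the aldehydes that form when lipids are oxidised. The family has soluble classes named alpha (Gsta3, Gsta4), mu (Gstm1, Gstm2), pi (Gstp1), omega (Gsto1) and theta (Gstt1), a mitochondrial kappa class (Gstk1), and membrane proteins of a separate origin (Mgst1, Mgst3). These 10 genes were chosen by name, and each was read from the probe sets that carried its symbol. Of the 10, 9 had a probe set (1 each), among 21506 genes measured in all. The expression of Gstm2 was not analysed here.

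The cells were 3T3-L1 adipocytes, a mouse fibroblast line turned into fat cells in culture, and RNA was measured on 32 Affymetrix arrays in 16 groups of 2. Auranofin at 1 µM together with BCNU at 100 µM, auranofin alone and BCNU alone were each given for 2, 4, 8 or 24 h, and the references were cells without drug at 4, 8 and 24 h and untreated cells at 0 h. Auranofin, a gold compound, inhibits thioredoxin reductase, and BCNU, 1,3-bis-(2-chloroethyl)-1-nitrosourea, inhibits glutathione reductase, so that each drug blocks one of the routes by which the cell recycles its thiol antioxidants. The labels gave no 2 h control, so the 2 h treatments were set against the untreated cells, and they did not say that replicate arrays came from separate cultures, so that a p-value here reflects only how far paired arrays lay apart, which may be technical spread.

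Levels are log2 values in which 1 unit is a doubling, and changes are differences of these, given ± SE. A gene was called when its adjusted p from limma, taken over all 21506 genes, was under 0.05 and its change was over 0.5 either way. The arrays were alike in overall signal (medians of 3.55 to 3.69), and replicates correlated at 0.993 to 0.995. All measured members lay above the background mark of 2.33, the highest lower quartile of any array, with the lowest single value at 4.35 for Gsta3. Because probe sets differ in brightness, the level of one gene cannot be set against that of another. A probe set can also bind the RNA of a close relative, so the signal of Gstp1 cannot be told apart from that of its near-identical neighbour Gstp2, for which no probe set was used here.

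The promoters of Gsta3, Mgst1 and Gstp1 are shown because they held a match to one of 2 short motifs linked with oxidant-responsive genes. The first is the core of the antioxidant response element, TGACNNNGC, which is bound by NRF2 (Nfe2l2) with a small Maf protein, and the second is the AP-1 site, TGANTCA. Both strands were searched in RefSeq windows of 300 bases (250 before a transcript start and 50 after it, build GRCm38.p6), which matched 9 of the 10 members: the 8 measured members other than Gsta4, whose promoter was not analysed here, and Gstm2. Capitals mark the match, and its position is counted from the transcript start on which the window was set, which need not be the outermost start of the gene. The match starts at base -121 in Gsta3 and at -74 in Gstp1, and lies at -56 on the opposite strand in Mgst1.
Gsta3, chr1:21240424-21240512, + strand, antioxidant response element core: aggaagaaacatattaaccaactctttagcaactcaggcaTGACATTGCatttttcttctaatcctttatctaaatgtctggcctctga
Mgst1, chr6:138140431-138140519, + strand, antioxidant response element core: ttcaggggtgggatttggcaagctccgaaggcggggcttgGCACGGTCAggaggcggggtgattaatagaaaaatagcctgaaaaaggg
Gstp1, chr19:4037940-4038026, - strand, AP-1 site: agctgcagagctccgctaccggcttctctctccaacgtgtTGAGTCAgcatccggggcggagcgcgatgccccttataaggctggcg
In the form searched, the antioxidant response element core was found in 2 of these 9 genes, against 14% of 27025 genes with a window. The AP-1 site was found in 1 of 9, against 8.97%. The letters gc follow the Gstp1 match, so that this stretch departs from the searched core only by G in place of C. Other forms of the core were not searched. These matches are a description of the letters and not of binding, and a window without one says nothing of sites elsewhere. Of the 3 genes, Gsta3 and Gstp1 rose with drug, and Mgst1 was called in no comparison (below). Gstm1 and Gsto1, which also rose, held neither motif in their windows. A link between motif and rise was not tested.

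In cells without drug the members moved little. Against untreated cells, 0 of 9 members were called in controls at 4, 8 or 24 h by limma, where 0% of all genes were called while 1013, 917 and 955 of them reached an unadjusted p under 0.05. The 2 members with an unadjusted p under 0.05 were both at 24 h. Gsta3 stood at 4.38 and 4.55 in 24 h controls, against 4.94 and 4.93 in untreated cells, and Gstt1, the theta-class enzyme, stood at 5.94 and 5.75 in 24 h controls, against 6.35 and 6.30 in untreated cells. Both differences had an adjusted p of 1.

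After 24 h, 5 of the 9 members were called higher with either auranofin regimen, and no member was called with BCNU alone. The share of all genes called higher at 24 h was 4.88% with both drugs, 0.921% with auranofin and 0.121% with BCNU, and the share called lower was 4.25%, 0.358% and 0.0697%. With 1 array left out the shares called higher were 3.62% to 4.56%, 0.446% to 0.758% and 0.0279% to 0.0744%. The same 5 genes were called with both drugs and with auranofin: Gsta3, Gsta4, Gstp1, Gstm1 and Gsto1, one or more from each of the alpha, pi, mu and omega classes. The theta and kappa enzymes and both membrane proteins were not. The median change of the 9 members was 0.51 with both drugs, 0.58 with auranofin and 0.26 with BCNU, where the median over all genes was 0.01, -0.00 and -0.01. The 3 treatments share the same control arrays.

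**Figure D1:**
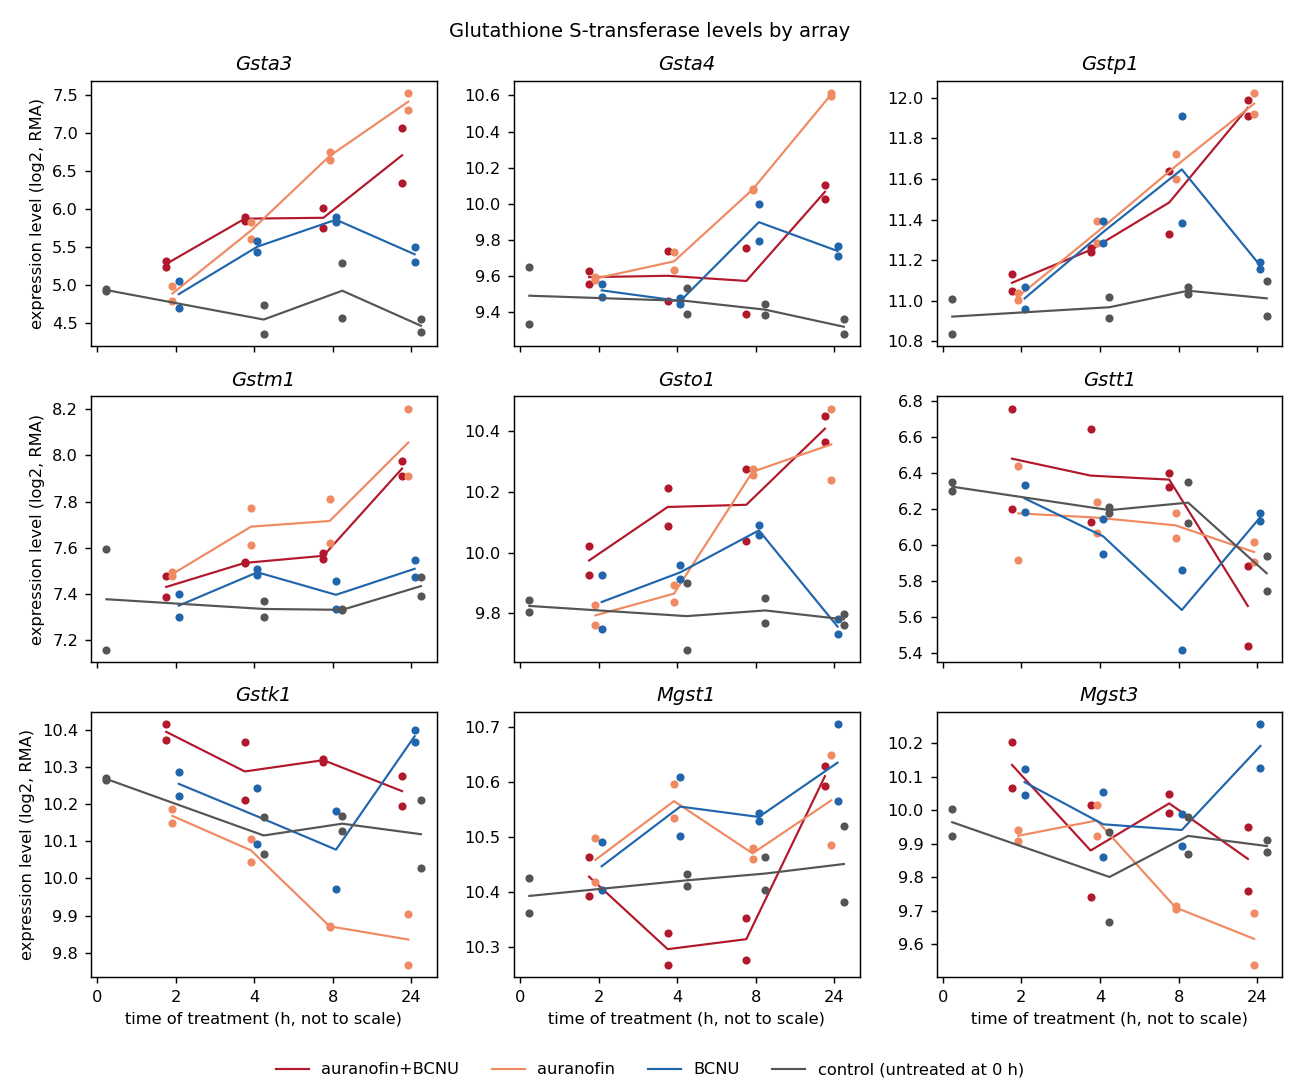
Level of each of the 9 measured members (log2, vertical axis) at each time of treatment (hours, not to scale), with 1 point per array and a line through the group means for both drugs, auranofin, BCNU and control cells. Gsta3 reached 7.53 and 7.31 on the 24 h auranofin arrays and lay at 4.38 and 4.55 on the 24 h control arrays.

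Gsta3, an alpha-class enzyme that in mice is known for detoxifying aflatoxin, had the largest change of the 9 members at 4, 8 and 24 h and was the first to be called. At 4 h it stood at 5.90 and 5.85 with both drugs, 5.83 and 5.61 with auranofin and 5.44 and 5.58 with BCNU, against 4.74 and 4.35 in 4 h controls. All 6 treated arrays lay above both control arrays. The change was 1.33 ± 0.22 with both drugs (2.51-fold, adjusted p = 0.000377, limma), 1.17 ± 0.22 with auranofin (2.26-fold, adjusted p = 0.0157) and 0.96 ± 0.22 with BCNU (1.95-fold, adjusted p = 0.0358). It was the only one of the 9 members called at 4 h in each treatment, where 2.53%, 0.242% and 0.391% of all genes were called higher with both drugs, auranofin and BCNU. Leaving out any 1 of the 4 arrays ended the BCNU call for Gsta3 (adjusted p = 0.0517 to 0.368), and leaving out the second 4 h control or either auranofin array ended the auranofin call (adjusted p = 0.252, 0.136 and 0.0578). The call with both drugs held without each array in turn.

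At 8 h Gsta3 stood at 6.02 and 5.75 with both drugs, 6.76 and 6.65 with auranofin and 5.90 and 5.83 with BCNU, against 5.29 and 4.56 in 8 h controls. Again the treated and control arrays did not overlap, and the auranofin arrays were the highest of the 8. The change was 0.96 ± 0.22 with both drugs (1.95-fold, adjusted p = 0.00361), 1.78 ± 0.22 with auranofin (3.42-fold, adjusted p = 6.58e-05) and 0.94 ± 0.22 with BCNU (1.91-fold, adjusted p = 0.0175), all by limma. The second 8 h control was the lower of the pair. Without it the change with both drugs was 0.60 and no longer called (adjusted p = 0.116), and the BCNU call for Gsta3 was lost without that array, or without the first or the second BCNU array (adjusted p = 0.314, 0.125 and 0.0671).

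At 24 h Gsta3 stood at 6.35 and 7.08 with both drugs, 7.53 and 7.31 with auranofin and 5.51 and 5.31 with BCNU, against 4.38 and 4.55 in 24 h controls. The 4 sets of arrays did not overlap. The change was 2.25 ± 0.22 with both drugs (4.75-fold, adjusted p = 2.91e-07), and 2.95 ± 0.22 with auranofin (7.75-fold, adjusted p = 5.92e-08). With auranofin this was the largest rise of all 21506 genes, in place 1 by change. Gsta3 was in place 53 with both drugs and in place 33 with BCNU. With BCNU Gsta3 was 0.94 ± 0.22 above control at 24 h (adjusted p = 0.101, limma), which did not pass the adjustment.

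Gsta4, the alpha-class enzyme known for its preference for 4-hydroxynonenal, an aldehyde from oxidised lipid, was called from 8 h. At that time it stood at 9.39 and 9.76 with both drugs, 10.08 and 10.07 with auranofin and 10.00 and 9.80 with BCNU, against 9.45 and 9.38 in 8 h controls. The arrays with both drugs overlapped the controls, and those with either drug alone did not. The change was 0.66 ± 0.12 with auranofin (1.58-fold, adjusted p = 0.00484, limma). With BCNU the change of 0.48 ± 0.12 passed the adjusted p (0.0280) but not the size needed for a call. With both drugs it was 0.16 ± 0.12. The auranofin call for Gsta4 at 8 h was lost without the second control array or the second auranofin array (adjusted p = 0.0712 and 0.0605).

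By 24 h Gsta4 stood at 10.03 and 10.11 with both drugs, 10.61 and 10.60 with auranofin and 9.77 and 9.71 with BCNU, against 9.36 and 9.28 in 24 h controls. Each treatment lay above the controls, and auranofin above both other treatments. The change was 0.75 ± 0.12 with both drugs (1.68-fold, adjusted p = 0.000198), 1.28 ± 0.12 with auranofin (2.44-fold, adjusted p = 3.05e-06) and 0.42 ± 0.12 with BCNU (adjusted p = 0.246, limma), of which the first 2 were called.

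Gstp1, the pi-class enzyme, which is also known to add glutathione to protein thiols, was called from 8 h. It stood at 11.33 and 11.64 with both drugs, 11.72 and 11.60 with auranofin and 11.91 and 11.39 with BCNU, against 11.07 and 11.03 in 8 h controls. All 6 treated arrays were above the controls, with the widest spread in the BCNU pair. The changes were 0.43 ± 0.13 with both drugs, which passed the adjusted p (0.0275) but not the size, 0.61 ± 0.13 with auranofin (1.53-fold, adjusted p = 0.0149) and 0.60 ± 0.13 with BCNU (1.51-fold, adjusted p = 0.0126), by limma. At 8 h the share of all genes called higher was 5.72%, 0.916% and 0.879% with both drugs, auranofin and BCNU, and the count of members was 1, 3 and 2 of 9. Leaving out any 1 of the 4 arrays ended the auranofin call for Gstp1 (adjusted p = 0.0802 to 0.139), and the BCNU call was lost without the first or second control (adjusted p = 0.0766 and 0.102) or without the first BCNU array, where the change was 0.34 (adjusted p = 0.259).

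At 24 h Gstp1 stood at 11.91 and 11.99 with both drugs and 12.02 and 11.92 with auranofin, with BCNU at 11.16 and 11.19, against 11.10 and 10.93 in 24 h controls. The arrays with auranofin in either form lay apart from the rest. The change was 0.94 ± 0.13 with both drugs (1.92-fold, adjusted p = 3.99e-05, limma) and 0.96 ± 0.13 with auranofin (1.94-fold, adjusted p = 0.000259), and both calls held without each array in turn.

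Gsto1, an omega-class enzyme known to reduce mixed disulphides of glutathione, moved in small steps. At 24 h it stood at 10.45 and 10.36 with both drugs, 10.47 and 10.24 with auranofin and 9.73 and 9.78 with BCNU, against 9.76 and 9.80 in 24 h controls. The BCNU arrays lay with the controls. The change was 0.63 ± 0.10 with both drugs (1.54-fold, adjusted p = 0.000208, limma) and 0.58 ± 0.10 with auranofin (1.49-fold, adjusted p = 0.00335). With both drugs, Gsto1 passed the adjusted p but not the size at 4 h (0.36 ± 0.10, adjusted p = 0.0309) and at 8 h (0.35 ± 0.10, adjusted p = 0.0230), as it did with auranofin at 8 h (0.46 ± 0.10, adjusted p = 0.0203). The auranofin call for Gsto1 at 24 h was lost without the first auranofin array (adjusted p = 0.109).

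Gstm1, a mu-class enzyme, was called at 24 h alone. It stood at 7.98 and 7.91 with both drugs, 7.91 and 8.20 with auranofin and 7.55 and 7.47 with BCNU, against 7.39 and 7.48 in 24 h controls. The arrays with auranofin, in either form, lay above the rest at that time. The change was 0.51 ± 0.12 with both drugs (1.42-fold, adjusted p = 0.00565, limma) and 0.62 ± 0.12 with auranofin (1.54-fold, adjusted p = 0.00661). With both drugs the Gstm1 call was lost without the first control or the first treated array (adjusted p = 0.0535 and 0.0556) and, with array medians set equal, at a change of 0.48, and with auranofin it was lost without the first control or the second auranofin array (adjusted p = 0.0801 and 0.114).

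**Figure D2:**
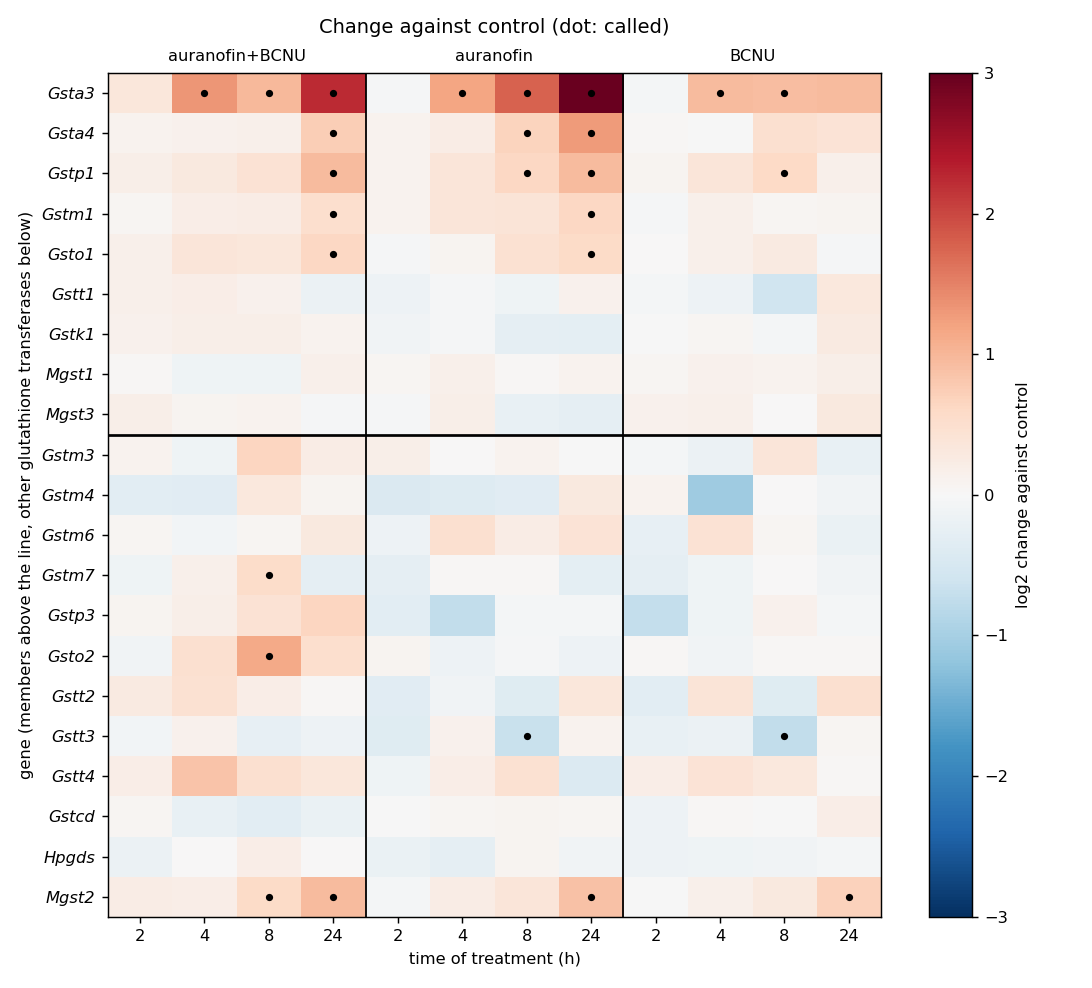
Log2 change against control (colour, red higher and blue lower) of the 9 members above the line and 12 other glutathione transferases below it, in 3 blocks of columns for both drugs, auranofin and BCNU at 2, 4, 8 and 24 h. Dots mark called changes, which are 5, 5 and 0 of the 9 members at 24 h.

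At 2 h 0 of the 9 members were called in any treatment, where 1.49% of genes were called with both drugs, 0.0697% with auranofin and 0.0465% with BCNU, and 0 members had an unadjusted p under 0.05 in limma. With both drugs at 2 h Gsta3 stood at 5.25 and 5.31, against 4.94 and 4.93 in untreated cells. The treated pair lay above the untreated pair, but the change was not called.

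The treatments were then compared with each other. At 24 h auranofin differed from BCNU in 7 of the 9 members, of which 5 were higher and 2 lower with auranofin, where 1.34% of all genes were called higher and 0.818% lower. The differences, auranofin minus BCNU, were 2.01 ± 0.22 for Gsta3 (4.03-fold, adjusted p = 1.39e-05), 0.87 ± 0.12 for Gsta4 (adjusted p = 0.000318), 0.80 ± 0.13 for Gstp1 (adjusted p = 0.00146), 0.60 ± 0.10 for Gsto1 (adjusted p = 0.00194) and 0.55 ± 0.12 for Gstm1 (adjusted p = 0.0128), by limma. The 2 lower genes were Gstk1 and Mgst3. At 8 h 0 of 9 members were called between the single drugs, where 0.874% of genes were, 4 members had an unadjusted p under 0.05, and Gsta3 was 0.84 ± 0.22 higher with auranofin (adjusted p = 0.0629). The number called at 24 h lay between 4 and 6 when 1 array was left out. Without the first auranofin array the Gsto1, Gstk1 and Mgst3 calls were lost (adjusted p = 0.0714, 0.0562 and 0.123), without the first BCNU array those of Mgst3 and Gstm1 (adjusted p = 0.0775 and 0.0577), and Gstm1 was also lost without the second auranofin or BCNU array (adjusted p = 0.163 and 0.131).

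**Figure D3:**
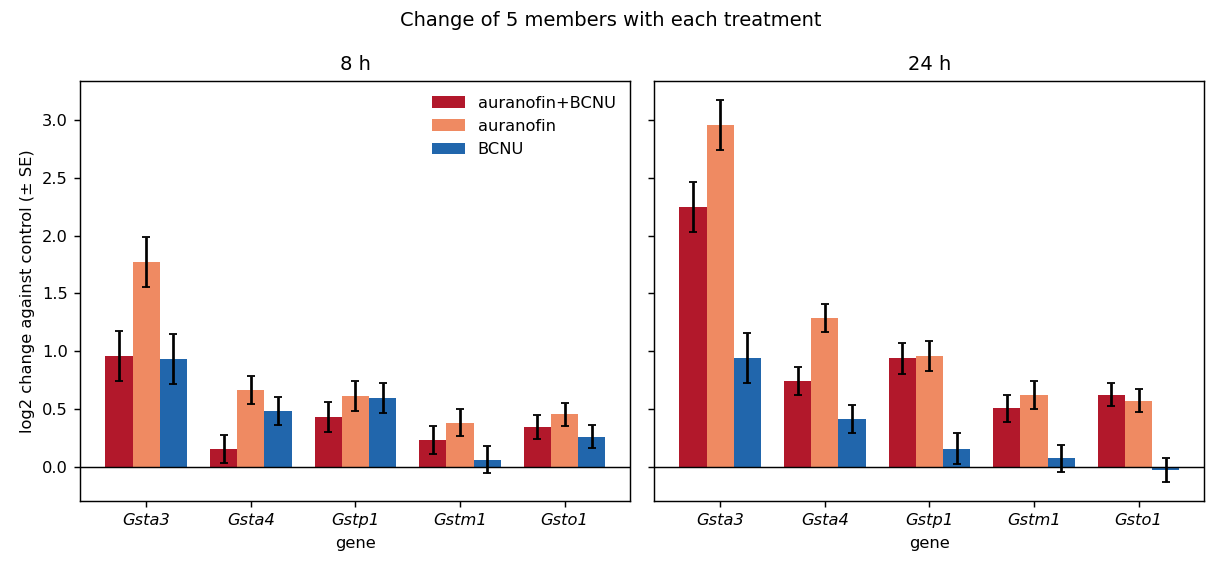
Log2 change against control ± SE (bars from 0) of Gsta3, Gsta4, Gstp1, Gstm1 and Gsto1 with both drugs, auranofin and BCNU, at 8 h and 24 h. At 24 h the Gsta3 bars stand at 2.25, 2.95 and 0.94, and those of Gstp1 with both drugs and with auranofin at 0.94 and 0.96.

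Adding BCNU to auranofin left both alpha-class genes lower than auranofin alone. At 8 h the difference, both drugs minus auranofin, was -0.81 ± 0.22 for Gsta3 (adjusted p = 0.0131, limma) and -0.51 ± 0.12 for Gsta4 (adjusted p = 0.00639). At 24 h it was -0.71 ± 0.22 for Gsta3 (adjusted p = 0.0395) and -0.54 ± 0.12 for Gsta4 (adjusted p = 0.00514). These were the 2 of 9 members called at each time, where 4.97% of all genes were called lower at 8 h and 3.71% at 24 h. For the other 3 risen genes no difference was found at 24 h, with 95% intervals of -0.30 to 0.25 for Gstp1, -0.36 to 0.14 for Gstm1 and -0.16 to 0.26 for Gsto1. The first array with both drugs at 24 h gave 6.35 for Gsta3 and the second 7.08, and without the first the difference from auranofin was -0.34 for Gsta3 (adjusted p = 0.510) and the Gsta4 call was lost as well (adjusted p = 0.0585). The Gsta3 call at 24 h was also lost without the first or second auranofin array (adjusted p = 0.232 and 0.0780) and after cyclic loess (adjusted p = 0.0516). At 8 h the Gsta3 call was lost without the first or second auranofin array or the second with both drugs (adjusted p = 0.0851, 0.0527 and 0.114), and the Gsta4 call without the first array with both drugs (adjusted p = 0.127).

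Set against BCNU alone at 24 h, both drugs gave higher Gsta3 (1.30 ± 0.22, adjusted p = 0.000271, limma), Gstp1 (0.78 ± 0.13, adjusted p = 0.000328) and Gsto1 (0.65 ± 0.10, adjusted p = 0.000153), 3 of 9 members where 4.38% of all genes were called higher. Gstm1 passed the adjusted p (0.0191) at a change of 0.43, short of the size limit. At 8 h 1 of 9 members was called higher, where 5.04% of genes were, and it was Gstt1.

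The change with both drugs was also compared with the sum of the single-drug changes on the log2 scale, and the difference is called the interaction here. At 8 h the single-drug changes of Gsta3 summed to 2.71, and the change with both drugs was 0.96, an interaction of -1.75 ± 0.31 (adjusted p = 0.00115, limma). For Gsta4 the sum was 1.15 and the change with both 0.16, an interaction of -0.99 ± 0.17 (adjusted p = 0.00102). For Gstp1 the sum was 1.21 and the change with both 0.43, an interaction of -0.78 ± 0.19 (adjusted p = 0.0127). Thus 3 of 9 members were called below the sum at 8 h and 1, Gstk1, above it. Of all genes, 3.98% were called below the sum and 3.49% above it. With array medians set equal, which moves every gene by -0.13 in this comparison, these shares were 6.85% and 2.12%, and the interactions of Gsta3, Gsta4 and Gstp1 were still called (-1.89, -1.12 and -0.91). The Gstp1 interaction was lost without the first array with both drugs, with auranofin or with BCNU (adjusted p = 0.0639, 0.0532 and 0.0666), while those of Gsta3 and Gsta4 held without each array in turn.

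At 24 h the shortfall was called for both alpha-class genes. The single-drug changes summed to 3.90 for Gsta3 and 1.70 for Gsta4, and the interactions were -1.65 ± 0.31 (adjusted p = 0.00213, limma) and -0.96 ± 0.17 (adjusted p = 0.00142), each called without any 1 array. These were 2 of 9 members, where 2.01% of all genes were called below the sum. For Gstp1 the sum was 1.12 and the change with both 0.94, with a 95% interval for the interaction of -0.57 to 0.21. At 4 h 0 of 9 members were called, where 1.57% of genes were, 3 members had an unadjusted p under 0.05, and the Gsta3 interaction was -0.80 ± 0.31 (adjusted p = 0.235).

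**Figure D4:**
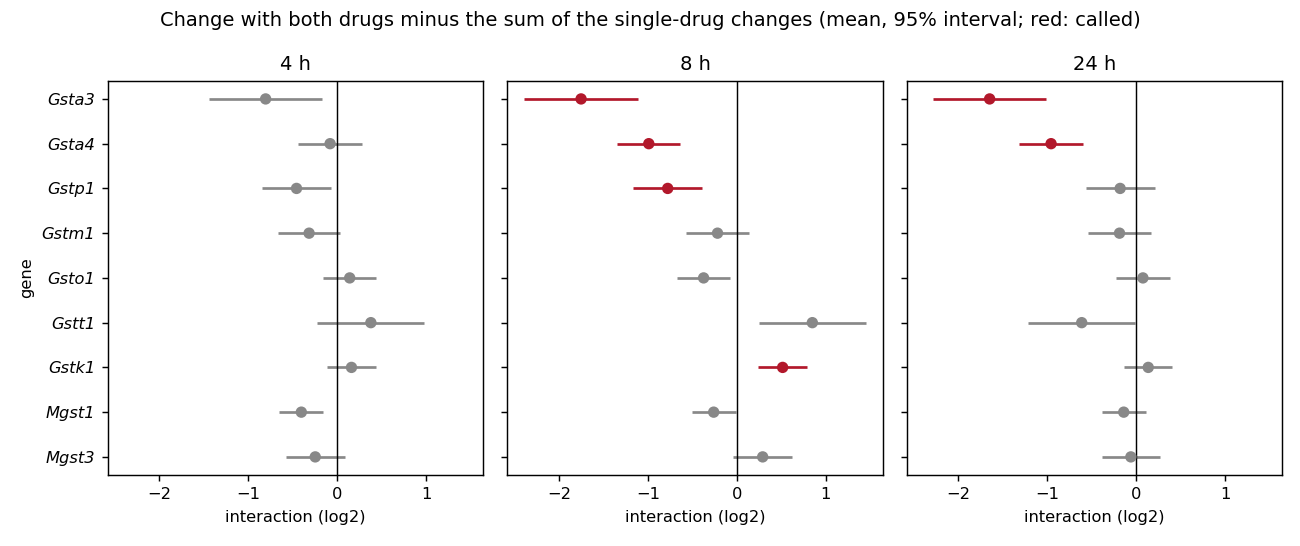
Interaction of the 2 drugs (change with both minus the sum of the single-drug changes, log2, horizontal axis) for each measured member at 4, 8 and 24 h, with 95% intervals and called values in red. Gsta3 lies at -1.75 at 8 h and -1.65 at 24 h, and the 24 h values of Gstm1, Gstp1 and Gsto1 lie within 0.2 of 0.

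The change at 24 h was compared with the change at 8 h within each treatment. With both drugs the Gsta3 change at 24 h exceeded that at 8 h by 1.29 ± 0.31 (adjusted p = 0.0244, limma), 1 of 9 members called where 1.37% of all genes were called higher. The Gsta3 mean with both drugs was 5.89 at 8 h and 6.71 at 24 h, and that of controls 4.93 and 4.46. Part of the difference thus lay in the controls, which all 3 treatments share. The control arrays stood at 5.29 and 4.56 at 8 h and at 4.38 and 4.55 at 24 h. With auranofin the same difference was 1.18 ± 0.31 for Gsta3 (adjusted p = 0.319) and 0.62 ± 0.17 for Gsta4 (adjusted p = 0.355), with 0 members called where 0.0325% of genes were. With BCNU it was 0.01 ± 0.31 for Gsta3 and -0.44 ± 0.19 for Gstp1 (adjusted p = 0.388), with 0 members called where 0.488% of genes were. Whether these differences themselves differ between treatments was not tested. The Gsta3 call with both drugs was lost without the first 8 h control, the second 8 h array with both drugs, the first or second 24 h control or the second 24 h array with both drugs (adjusted p = 0.145, 0.0881, 0.0841, 0.0532 and 0.149).

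Gstk1, the mitochondrial kappa-class enzyme, did not follow the 5 risen genes. At 8 h it stood at 10.31 and 10.32 with both drugs, 9.87 and 9.87 with auranofin and 10.18 and 9.97 with BCNU, against 10.13 and 10.17 in controls. The auranofin arrays were the lowest of the 8, at a change of -0.28 ± 0.09 that was not called (adjusted p = 0.153, limma). The interaction was 0.52 ± 0.13 (adjusted p = 0.0173) and was lost without the second array of control, auranofin or BCNU (adjusted p = 0.0622, 0.0579 and 0.0970) and with array medians set equal, where it was 0.38 (adjusted p = 0.0609). At 24 h Gstk1 stood at 10.28 and 10.19 with both drugs, 9.77 and 9.90 with auranofin and 10.40 and 10.37 with BCNU, against 10.21 and 10.03 in controls. Again auranofin gave the lowest pair, now -0.55 ± 0.09 from BCNU (adjusted p = 0.00184).

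Mgst3, a microsomal membrane protein with glutathione transferase and peroxidase activity, had a similar order at 24 h. It stood at 9.95 and 9.76 with both drugs, 9.54 and 9.69 with auranofin and 10.26 and 10.13 with BCNU, against 9.88 and 9.91 in controls. Auranofin gave the lowest pair and BCNU the highest, and they differed by -0.57 ± 0.11 (adjusted p = 0.00590, limma), while neither was called against control (adjusted p = 0.330 and 0.432). Mgst1, the related microsomal enzyme, ranged only from 10.27 to 10.71 over the 32 arrays and was called in none of the 34 comparisons.

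Gstt1 was called in 1 comparison. At 8 h it stood at 6.40 and 6.33 with both drugs, 6.04 and 6.18 with auranofin and 5.86 and 5.42 with BCNU, against 6.12 and 6.35 in controls. BCNU gave the lowest pair, -0.60 ± 0.20 from control (adjusted p = 0.131, limma), and both drugs lay 0.73 ± 0.20 above BCNU (adjusted p = 0.0200). That call was lost without the second BCNU array or either array with both drugs (adjusted p = 0.231, 0.103 and 0.0650). At 24 h the Gstt1 arrays of BCNU were at 6.18 and 6.13.

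Across the 16 group means, the 5 risen genes ran closely together, with Pearson's r between pairs of 0.78 to 0.94, the highest for Gsta3 with Gstp1. Gstk1 and Mgst3 ran together at 0.85 and had negative r with all 5, between -0.36 and -0.58. These values describe 16 groups that share cells, drugs and times, and they carry no test.

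Among the genes outside the 10, those whose group means followed a risen member most closely were found by Pearson's r over the 16 groups among 2230 candidates, again as a description. For Gsta3 they were Lrp8 (0.952), Ephx1 (0.952) and Nqo1 (0.941), and for Gstp1 Ephx1 (0.972), Nqo1 (0.966) and Lxn (0.955). For Gsta4 they were Rnf128 (0.939), Entpd5 (0.913) and Nqo1 (0.904). For Gsto1 they were Blvrb (0.943), Gabarapl1 (0.932) and Prr13 (0.925), and for Gstm1 Creg1 (0.903), Gsdme (0.887) and Slc11a1 (0.877). Nqo1, a quinone reductase, and Ephx1, an epoxide hydrolase, are known NRF2 targets, and Nqo1 stood among the closest 3 for 3 of the 5 members.

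Of 18 other glutathione transferase genes listed, 12 were measured, with a median change at 24 h of 0.15 with both drugs, 0.03 with auranofin and -0.01 with BCNU. At 24 h 1 of 12 rose with each treatment, where 4.88%, 0.921% and 0.121% of all genes did with both drugs, auranofin and BCNU, and it was Mgst2, a microsomal relative that can also make leukotriene C4. Mgst2 changed by 0.96 ± 0.09 with both drugs (adjusted p = 4.19e-07, limma), 0.88 ± 0.09 with auranofin (adjusted p = 1.32e-05) and 0.70 ± 0.09 with BCNU (adjusted p = 0.0022), with an interaction of -0.63 ± 0.13 (adjusted p = 0.00733). It was thus called with BCNU at 24 h where none of the 9 members was.

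Several of these genes are chromosomal neighbours of members in the order of the RefSeq annotation, and no difference between neighbours was tested. Gstm3, Gstm4, Gstm6 and Gstm7, measured genes of the mu cluster that holds Gstm1, were not called at 24 h with both drugs (changes of 0.21, 0.09, 0.28 and -0.28). Gstp3, near Gstp1, stood at a change of 0.63 with both drugs (adjusted p = 0.481) and -0.05 with auranofin at 24 h. Gsto2, next to Gsto1, was 0.51 with both drugs at 24 h (adjusted p = 0.0973), and at 8 h it rose by 1.13 ± 0.19 with both drugs (adjusted p = 0.000303, limma), against -0.05 with auranofin and 0.04 with BCNU. Its interaction at 8 h was 1.14 ± 0.27 (adjusted p = 0.0131), above the sum, where Gsta3, Gsta4 and Gstp1 were below it. Gstm7 and Mgst2 also rose at 8 h with both drugs (0.56, adjusted p = 0.00815, and 0.57, adjusted p = 0.000222), so that 3 of 12 were called, where 5.72% of all genes were called higher. Gstt3, next to Gstt1, fell at 8 h with auranofin (-0.67, adjusted p = 0.0201) and with BCNU (-0.74, adjusted p = 0.00656).

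Of 15 measured genes of glutathione synthesis, recycling and breakdown, 8 rose and 1 fell at 24 h with both drugs, 5 rose with auranofin and 0 were called with BCNU, with medians of 0.52, 0.24 and -0.05, where 4.88%, 0.921% and 0.121% of all genes were called higher. Slc7a11, the cystine importer, changed by 2.19 ± 0.26 with both drugs (adjusted p = 4.77e-06, limma), 1.93 ± 0.26 with auranofin (adjusted p = 0.000206) and 0.35 ± 0.26 with BCNU (adjusted p = 0.829). Gclm, a regulatory partner of Gclc in the first step of glutathione synthesis, changed by 1.48 ± 0.10, 1.63 ± 0.10 and 0.14 ± 0.10 in the same order (adjusted p = 3.07e-09, 1.41e-08 and 0.829). Chac1, which degrades glutathione, rose with both drugs (1.17 ± 0.14, adjusted p = 4.67e-06) but stood at 0.12 with auranofin. Anpep, an aminopeptidase that acts on a breakdown product, fell with both drugs (-1.48 ± 0.14, adjusted p = 1.62e-07).

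Of 9 measured pumps that carry glutathione conjugates and drugs out of the cell, 3 rose at 24 h with auranofin (median of the 9 0.34, against 0.04 with both drugs). These were Abcc4 (1.78 ± 0.20, adjusted p = 2.04e-05), Abcc1 (1.02 ± 0.11, adjusted p = 9.33e-06) and Abcg2 (0.74 ± 0.13, adjusted p = 0.00404), by limma. With both drugs Abcc4 alone rose, by 0.69 ± 0.20 (adjusted p = 0.0232), and with BCNU Abcc4 fell, by 1.24 on the log2 scale (adjusted p = 0.0101). Abcc4 at 8 h was 0.94 ± 0.20 above control with BCNU (adjusted p = 0.00952). At 24 h 0.921% of all genes were called higher with auranofin and 4.88% with both drugs, and 0.0697% were called lower with BCNU.

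Of 20 measured genes for removal of reactive aldehydes and carbonyls by other routes, 3 rose with both drugs at 24 h, 4 with auranofin and 0 with BCNU. The medians of the 20 were 0.07, 0.16 and 0.02, where 4.88%, 0.921% and 0.121% of all genes were called higher. Cbr3, a carbonyl reductase, changed by 1.76 ± 0.15 with both drugs (adjusted p = 5.3e-08, limma) and 1.60 ± 0.15 with auranofin (adjusted p = 3.05e-06). Ptgr1, which reduces unsaturated aldehydes and ketones, changed by 1.54 ± 0.21 (adjusted p = 3.22e-05) and 1.28 ± 0.21 (adjusted p = 0.00182) in the same order. Adh7, an alcohol dehydrogenase, rose with auranofin (1.53 ± 0.16, adjusted p = 9.82e-06) and was 0.40 with both drugs (adjusted p = 0.113). Among 14 measured other enzymes that use glutathione, such as glutaredoxins and glutathione peroxidases, 0 were called with both drugs at any time. With both drugs 1.49%, 5.84%, 11.3% and 9.13% of all genes were called either way at 2, 4, 8 and 24 h. With auranofin 1 was called at 24 h, Gpx8 (0.61 ± 0.13, adjusted p = 0.0147, limma), where 1.28% of all genes were called either way. Hpgds stands both in this list and among the other glutathione transferases.

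NRF2 is the transcription factor best known for inducing glutathione transferases, and 21 of its well-known targets outside the 10 were measured, of which Slc7a11, Gclm, Gclc, Gsr, Pgd, Abcc1, Cbr3 and Gpx2 also stand in the lists above. With both drugs 5, 11, 11 and 16 of 21 rose at 2, 4, 8 and 24 h, with auranofin 3, 12, 15 and 15, and with BCNU 2, 8, 14 and 0, and none was called lower. The shares of all genes called higher at these times were 0.632%, 2.53%, 5.72% and 4.88% with both drugs. They were 0.0697%, 0.242%, 0.916% and 0.921% with auranofin, and 0.0325%, 0.391%, 0.879% and 0.121% with BCNU. For BCNU, 14 targets and 2 members were called at 8 h, and 0 of each at 24 h, when 5 members had an unadjusted p under 0.05 (limma). The median change of the targets was 0.80 at 8 h and 0.06 at 24 h. Gsta3 was 0.94 above control at both times, but the 24 h change was not called. Its mean level with BCNU was 5.86 at 8 h and 5.41 at 24 h, against 4.93 and 4.46 in controls, so both fell. The median change of the targets at 24 h was 0.97 with both drugs, 0.94 with auranofin and 0.06 with BCNU. Nqo1 changed by 2.27 ± 0.15 with both drugs at 24 h (adjusted p = 1.21e-09, limma), 2.74 ± 0.15 with auranofin (adjusted p = 2.56e-09) and 0.27 ± 0.15 with BCNU (adjusted p = 0.706). At 8 h its interaction was -3.48 ± 0.21 (adjusted p = 6.29e-09), and 13 of 21 targets were called below the sum and 1 above it. The shares of all genes were 3.98% and 3.49%. At 24 h 0 of 21 were called below the sum and 4 above it, where 2.01% and 1.75% of all genes were. The median interaction of the targets at 24 h was -0.08, and Gsta3 and Gsta4 were called below the sum. Whether the members differed from the targets was not tested.

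Of 9 measured genes for NRF2 and the proteins that pair with it or oppose it, 4 rose with both drugs at 24 h, and 0 with either drug alone, with medians of 0.45, 0.14 and -0.03. The share of all genes called higher with both drugs at 24 h was 4.88%. At 4 h 3 of the 9 rose with both drugs, 2 with auranofin and 1 with BCNU, where 2.53%, 0.242% and 0.391% of all genes did. At 8 h 4, 2 and 3 of the 9 rose, where 5.72%, 0.916% and 0.879% of all genes did. Those called at 24 h were Maff (1.54 ± 0.21, adjusted p = 2.08e-05), Mafk (1.04 ± 0.25, adjusted p = 0.00621), Bach1, a repressor (0.89 ± 0.12, adjusted p = 1.57e-05), and Nfe2l3 (0.83 ± 0.24, adjusted p = 0.027), by limma. Of 3 measured relatives of the membrane members that take part in prostaglandin or leukotriene synthesis, Alox5ap rose with both drugs at 24 h (1.19 ± 0.28, adjusted p = 0.00678, limma). Ltc4s rose with BCNU at 24 h (0.50 ± 0.09, adjusted p = 0.0296). Of all genes, 4.88% and 0.121% were called higher with these treatments at 24 h.

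The cells carried the markers of fat cells throughout. All 14 measured adipocyte markers were above background in the mean of every group. At 24 h 0 of 14 were called in any treatment. The shares of all genes called either way at 24 h were 9.13% with both drugs, 1.28% with auranofin and 0.191% with BCNU. At 4 h 1 of 14 fell with both drugs, and at 8 h 2 with both drugs and 1 with auranofin. The matching shares of all genes called lower were 3.31%, 5.58% and 0.516%. Of the markers of preadipocytes and fibroblasts 19 were measured, and these too were above background in the mean of every group (lowest 3.73). A level above background thus does not tell these cell types apart. At 8 h 7 of the 19 fell with both drugs, 0 with auranofin and 7 with BCNU. Of all genes, 5.58%, 0.516% and 1.38% were called lower. At 24 h 18 of 19 fell with both drugs (median change -2.0), with a mean level of 7.41 to 7.54 over the 2 arrays, against 9.53 to 9.57 in controls, led by Sfrp2 (-4.79 ± 0.29, adjusted p = 2.49e-10, limma) and Postn (-3.50 ± 0.13, adjusted p = 3.41e-13). Of all genes, 4.25% were called lower with both drugs at 24 h. In bulk RNA fewer cells of a type and less RNA per cell cannot be told apart. With auranofin alone at 24 h the mean level of the 19 markers was 9.46 on both arrays, and the 5 members rose there too. Of these markers 2 were called higher and 4 lower, where 0.921% and 0.358% of all genes were. The part of these markers in the members' changes with both drugs was not tested.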

How the data were processed

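RNA from 32 samples was measured on Affymetrix MoGene 2.1 ST arrays. The authors deposited a matrix on the log2 scale, computed by RMA (background correction, quantile normalisation and summary by probe set; version not given in the sources used here), so the levels are relative within a probe set, and shifts shared by all genes are removed. Of 25293 probe sets, 22030 carried 1 gene symbol in the platform annotation, and the median over probe sets gave 21506 genes. Groups came from the sample labels. In R 4.3.3, limma 3.58.1 was fitted with a mean for each of 16 groups and a two-sided moderated test (16 residual degrees of freedom), with Benjamini-Hochberg adjustment over all genes within each of 34 comparisons, and the thresholds follow the study's methods. No filter on low values was used. The 2 arrays per group limit the precision (median SE of a change 0.17). The step was tested on simulated data: for both drugs against control at 24 h over 21506 genes, 71% of genes changed by 1 log2 unit and 98% of those changed by 2 were called, and 47% and 95% for the 24 h interaction. All members were named, and from each other list up to 4 called genes with the largest change. The members and lists were chosen with earlier results of these data known. Protein sequences were not analysed here. Alternatives were other normalisations, array subsets, pooled controls, thresholds, a replicate block and each array left out.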

Additional observations from a re-analysis of the deposited data

Results flagged for a closer look

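The change of Gsta3 with both drugs was larger at 24 h than at 8 h by 1.29 ± 0.31 on the log2 scale (adjusted p = 0.0244, limma, for the difference of the 2 changes), and all 4 treated arrays lay above their controls. Its mean with both drugs was 5.89 at 8 h and 6.71 at 24 h, and that of controls 4.93 and 4.46, so part of the difference lay in the controls. With 1 array left out the difference lay between 0.92 and 1.65, and the call did not hold in each such fit. The same difference was 1.18 ± 0.31 for Gsta3 with auranofin (adjusted p = 0.319). Whether the 2 treatments differ in this was not tested.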

How the results depend on the processing

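Counts of members called were recomputed under each alternative, and no called change of a member turned its sign. No rise or fall of a member was claimed from a change with an unadjusted p of 0.05 or more. The order of the Gsta3 arrays at 2 h is given as a description only. The replicate numbers did not pair the samples (correlation of replicate differences between groups -0.048 to 0.062). With the replicate block 5 members were called at 24 h with both drugs and 5 with auranofin, as without it. None of the 34 counts moved by over 1.5 times. Pooling all 8 arrays without drug, using 4 h controls for the 2 h treatments and taking another summary of probe sets moved no count by over 1.5 times. With array medians set equal, 2 members in place of 1 differed between 24 h and 8 h with both drugs, as with an intensity trend in the variance, where BCNU at 24 h had 1 in place of 0 and auranofin against BCNU at 8 h had 1 in place of 0. With only genes above the median level, BCNU at 24 h had 1. After cyclic loess, 1 in place of 2 members differed between both drugs and auranofin at 8 h, and 1 at 24 h.

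A fit to only the 4 arrays of a comparison, which has far fewer degrees of freedom, called 0 members at 4 h and at 8 h in every treatment, and at 24 h 3 with both drugs and 1 with auranofin. With no minimum size, both drugs had 2 at 4 h and 3 at 8 h. With a minimum change of 1, the counts were 0 for BCNU at 4 h, 0, 1 and 0 at 8 h for both drugs, auranofin and BCNU, and 1 and 2 at 24 h for both drugs and auranofin. With 1 array left out, the counts ranged from 4 to 5 at 24 h for both drugs and for auranofin, 0 to 2 at 8 h for both drugs, 1 to 2 for auranofin and 0 to 2 for BCNU, and 0 to 1 at 4 h for auranofin. They were 0 at 4 h for BCNU, 3 to 4 for the 8 h interaction, 4 to 6 for auranofin against BCNU at 24 h, 0 to 2 for both drugs against auranofin at 24 h and 1 at 8 h, 0 to 1 for both drugs against BCNU at 8 h, and 0 to 1 for the 24 h minus 8 h difference with both drugs. Apart from the subset's size, the cause of these shifts was not tested.

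Over all genes, the 4-array fit called 858 with both drugs, 9 with auranofin and 0 with BCNU at 24 h (1963, 275 and 41 in the fit to all arrays), and pooling the controls called 102 with BCNU at 24 h and 575 with both drugs at 2 h (41 and 321). With 1 array left out, 96 to 163 genes were called higher with auranofin and 6 to 16 with BCNU at 24 h (198 and 26 with all arrays), and 72 to 135 with auranofin at 8 h (197). With array medians set equal, the shares of all genes called higher and lower at 8 h were 4.39% and 7.01% for both drugs against control, 3.73% and 7.32% against auranofin, 3.33% and 6.91% against BCNU, and 1.19% and 1.11% for BCNU against control (5.72% and 5.58%, 5.5% and 4.97%, 5.04% and 4.22%, 0.879% and 1.38% without this step), and at 4 h 0.502% and 0.293% for BCNU against control (0.391% and 0.4%) and 0.465% and 1.81% for the interaction (0.53% and 1.04%).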
